A study of Mus musculus with 6 samples.

Results

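Fibroblast growth factor (FGF) receptors and a set of FGF ligands were followed in ADC106 cells, a mouse angiosarcoma line, after transfection with a microRNA mimic. The 10 genes were taken by symbol, through their mouse Ensembl identifiers, from a table of raw read counts for 55401 genes. They were the receptors Fgfr1, Fgfr2, Fgfr3, Fgfr4 and Fgfrl1 and the ligands Fgf1, Fgf2, Fgf7, Fgf18 and Fgf21. One group of 3 libraries came from cells given an NC mimic, whose genotype is labelled WT. The other 3 came from cells given an miR-497 mimic, whose genotype is labelled miR-497 overexpression. Both mimics were used at 12.5 nM, poly(A) RNA was sequenced at day 3, and all 6 libraries came from the same cell line. The labels do not say whether the 3 libraries of a group came from separate cultures, so p-values measure only the spread between these libraries, which may be technical.

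FGFs are secreted signals that, together with heparan sulfate on the cell surface, bring receptor tyrosine kinases into pairs and switch on the Ras-MAP kinase cascade. Active receptors induce their own inhibitors, among them the Sprouty and Spred proteins, and transcription factors of the Ets family. In blood vessels FGF2 and Fgfr1 are known for driving endothelial growth and vessel formation. A microRNA lowers its target transcripts mainly by pairing of its seed, bases 2 to 8, with sites in the 3' UTR.

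The seed of miR-497 is shared with a family of microRNAs. RefSeq sequences on GRCm38.p6 include 10 mature mouse microRNAs with the same bases 2 to 8, and 6 of them are shown with the seed in capitals to make clear which letters a target site has to match. The labels do not give the sequence of the mimic, so the mouse miR-497a-5p stands for it here.
miR-497a-5p: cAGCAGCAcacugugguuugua
miR-195a-5p: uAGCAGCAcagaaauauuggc
miR-16-5p: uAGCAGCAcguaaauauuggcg
miR-15a-5p: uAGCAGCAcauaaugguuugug
miR-15b-5p: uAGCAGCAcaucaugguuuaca
miR-322-5p: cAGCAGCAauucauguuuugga

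Sites were searched on the transcript strand of GENCODE M21 3' UTRs (GRCm38) as TGCTGCT, pairing with bases 2 to 8, or GCTGCTA, pairing with bases 2 to 7 and followed by A; the longer TGCTGCTA holds both. In the longest annotated 3' UTR, 4 of the 10 FGF genes had a match, namely Fgfr1, Fgf1, Fgf2 and Fgf7, and of these only Fgfr1 had enough reads to be tested. Among all 12860 tested genes with a 3' UTR, 28.1% held a match. Of the genes with a match 40.9% were lower with the miR-497 mimic by the test used below, and of those without 23.5%. The matches in Fgfr1 and in Fgf2 are shown in capitals, because one lies in the most abundant receptor and the other is the 8-base match in the best known endothelial ligand.
Fgfr1, chr8:25574764-25574791, plus strand: ataaaaaatTGCTGCTGCTtcattttta
Fgf2, chr3:37409905-37409932, plus strand: attttacggaTGCTGCTAtgagtaagta
The Fgfr1 stretch holds 2 overlapping matches, at bases 852 to 861 of a 3' UTR of 1797 bases. Fgfr1 transcripts with the shortest annotated 3' UTR, 656 bases, do not hold it. The Fgf2 match lies at bases 5118 to 5125 of a 3' UTR of 5311 bases, which carries 2 further GCTGCTA matches. The 3' UTRs of Fgfr2, Fgfr3, Fgfr4, Fgfrl1, Fgf18 and Fgf21 held none. In the coding sequence, Fgfrl1 had 4 matches, Fgf21 had 2, and Fgfr1 and Fgfr4 had 1 each.

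Library totals ranged from 25777676 to 36159499 counts. No pair of libraries was the same within sampling noise: chi-square divided by its degrees of freedom lay at 8.25 to 12.9 for pairs of the same group and at 103 to 127 for pairs of different groups. Endothelial genes were present as the line's label states. All 12 listed endothelial markers had more than 50 counts in at least 1 library, and their summed level was 9969 to 10679 CPM (read counts scaled to library size with TMM factors) with NC and 9647 to 10141 CPM with miR-497. Within that sum 4 markers were lower and 7 higher with miR-497 (edgeR adjusted p under 0.05), with log2 fold changes from -0.52 in Pecam1 to 1.03 in Emcn. Epithelial markers summed to at most 1.63 CPM, and 6 of the 7 haematopoietic markers never passed 50 counts. All 7 haematopoietic markers summed to 9.56 to 10.9 CPM with NC and 16 to 21.3 CPM with miR-497. Most of that sum was Cd68, the only haematopoietic marker called higher, at 8.25 ± 0.197 CPM with NC and 17.5 ± 2.39 CPM with miR-497 (SD, n = 3). The 8 mural and fibroblast markers summed to 209 to 219 CPM with NC and 261 to 309 CPM with miR-497. Among them Col1a1 and Acta2 were called higher, with log2 fold changes of 0.84 and 0.92, and Pdgfrb lower, at -0.37. Other measures moved with the mimic as well: the 20 interferon-stimulated genes summed to 4236 to 4802 CPM with NC and 769 to 870 CPM with miR-497, and mitochondrially encoded genes took 2.03% to 2.15% and 2.94% to 3.77% of the counts. Their part in the results below was not tested.

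Fgfr1 made up most of the FGF receptor RNA, and it fell with the miR-497 mimic. Of the 10 genes, 5 passed the filter on low counts, and Fgfr1, Fgfr2 and Fgfr3 fell by edgeR's quasi-likelihood test, taking 0.05 as the threshold after Benjamini-Hochberg adjustment over 14661 genes; Fgfrl1 and Fgf18 did not pass. Of all genes tested 26.0% were lower at that threshold and 23.8% higher, 49.8% in all. No FGF gene was higher by this test, by its unadjusted p under 0.05, by DESeq2 or by limma voom, each giving 0. In bulk RNA, fewer cells that express a gene and less RNA per cell cannot be told apart.

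**Figure D1:**
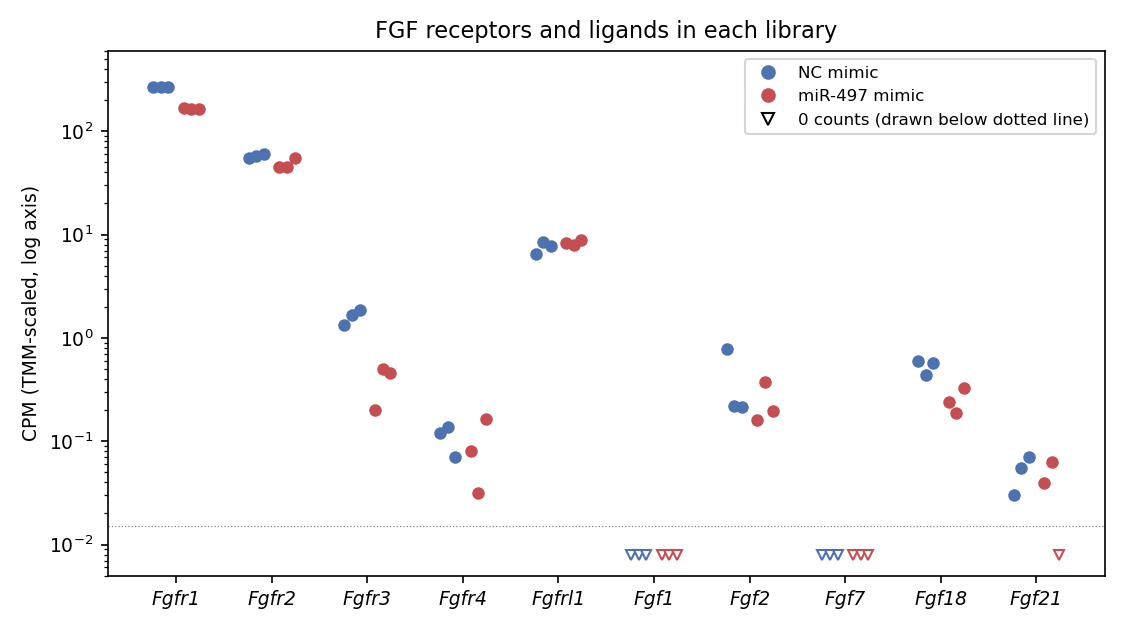
TMM-scaled CPM (log axis) of the 10 FGF genes in each of the 3 NC and 3 miR-497 libraries, 1 point per library; open triangles stand for 0 counts. Fgfr1 lies at 268 to 270 CPM with NC and 163 to 167 CPM with miR-497, while none of the 5 ligands reaches 1 CPM in any library.

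Fgfr1 (ENSMUSG00000031565, chr8:25513654-25575718) encodes the receptor kinase most often linked to FGF2 signalling in mesenchymal and endothelial cells. It stood at 270, 268 and 269 CPM in NC libraries 1 to 3 and at 167, 165 and 163 CPM in miR-497 libraries 1 to 3. The groups lay far apart and each was very tight, with 269 ± 0.953 CPM and 165 ± 2.12 CPM (SD, n = 3). The log2 fold change, miR-497 over NC, was -0.71 (standard error 0.0487, edgeR adjusted p = 4.1e-09). Of all tested genes, 12.0% had a more negative fold change, so the fall was clear in its error but not extreme in its size.

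Fgfr2 (ENSMUSG00000030849, chr7:130162451-133123350) encodes a receptor whose splice forms bind different ligands. Its levels were 55.1, 58.0 and 60.4 CPM with NC and 45.0, 44.6 and 54.4 CPM with miR-497. The third miR-497 library came within 1 CPM of the lowest NC library, although the groups did not overlap. Such separation in this direction was seen in 29.6% of tested genes. The log2 fold change was -0.27 (standard error 0.0797, edgeR adjusted p = 0.011). Without NC replicate 3 the call was lost, at -0.22 (edgeR adjusted p = 0.053), and over all alternatives the adjusted p ran from 0.0005 to 0.053. The annotated gene reaches exons of Ctbp2 on the same strand, which cover 3.04% of its exon bases.

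Fgfr3 (ENSMUSG00000054252, chr5:33721674-33737068), a receptor best known for restraining bone growth, had the most negative fold change of the 4 tested receptors, from a low level. Its counts were 44, 61 and 53 with NC and 5, 16 and 14 with miR-497, so every miR-497 library lay well under every NC library. Mean levels were 1.63 ± 0.280 CPM in NC and 0.387 ± 0.165 CPM in miR-497 libraries (SD, n = 3). The log2 fold change was -2.03 (standard error 0.423, edgeR adjusted p = 0.00069). It ran from -2.26 to -1.75 over the alternatives that kept the gene. Like Fgf18 below, Fgfr3 passed the filter on low counts only through its NC libraries, where it was high, and it was removed when a mean of 50 counts was required. Opposite-strand exons of G630022F23Rik cover 13.9% of the exon bases of Fgfr3, and the strand setting of the counting is not given in the sources used here, so some of these few reads may belong to that gene or be lost to it.

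Fgfrl1 (ENSMUSG00000008090, chr5:108692382-108706924) encodes a receptor-like protein that binds FGFs but lacks the tyrosine kinase domain. It had 216, 311 and 216 counts with NC and 210, 254 and 271 with miR-497, or 7.57 ± 1.00 and 8.41 ± 0.451 CPM (SD, n = 3), and the groups overlapped. Its log2 fold change was 0.15 (standard error 0.141, edgeR adjusted p = 0.39), which shows neither a change nor its absence. Fgfr4 (ENSMUSG00000005320), a receptor known from liver and its response to endocrine FGFs, had 4, 5 and 2 counts with NC and 2, 1 and 5 with miR-497. These counts sit at the limit of detection at this depth, and Fgfr4 was not tested.

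**Figure D2:**
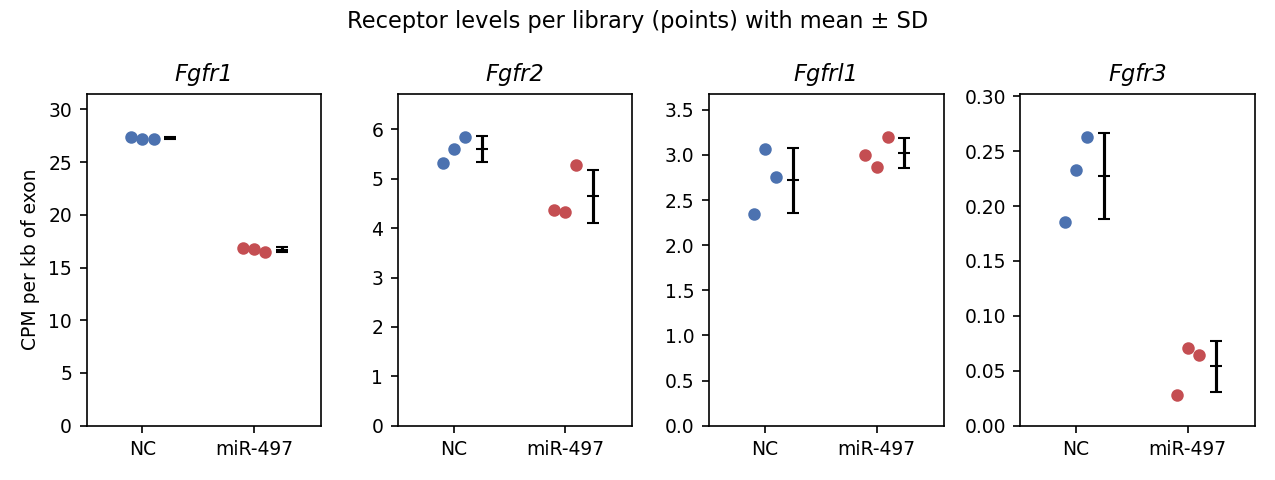
Level per kilobase of exon (CPM per kb) of 4 FGF receptor genes, with 1 point per library and the mean ± SD of 3 libraries beside the points; each panel has its own axis from 0. Fgfr1, Fgfr2 and Fgfr3 show separate groups, as do 29.6% of tested genes in this direction, and Fgfrl1 shows overlapping ones.

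Levels of different genes were compared per kilobase of the union of annotated exons. This union can be longer than a transcript, with 9875 bases against 5041 in the longest transcript of Fgfr1, 10328 against 4429 for Fgfr2 and 951 for both in Fgf21, so the effect of length was not removed equally for all genes. With NC, Fgfr1 stood at 27.3 ± 0.0965 CPM per kb, Fgfr2 at 5.60 ± 0.258, Fgfrl1 at 2.72 ± 0.361, Fgf18 at 0.452 ± 0.0733 and Fgfr3 at 0.227 ± 0.0391 (SD, n = 3). Each of these 5 lay above the next in every NC library. Below them came Fgf2, Fgf21 and Fgfr4, and neighbours in that order overlapped. With miR-497 the order of the means was the same, with Fgfr1 at 16.7 ± 0.214 and Fgfr3 at 0.0541 ± 0.0230 CPM per kb, but Fgfr3 then overlapped Fgf2.

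The sum of the 5 receptors fell from 35.8 ± 0.499 to 24.5 ± 0.524 CPM per kb (SD, n = 3; exact permutation test, 2-sided, p = 0.1, the smallest that 3 against 3 allows). Within that sum the share of Fgfr1 was 77.6%, 75.2% and 75.4% in the NC libraries and 69.5%, 69.7% and 65.7% in the miR-497 libraries. Every miR-497 library had a smaller Fgfr1 share than every NC library, and the mean share moved from 76.1% to 68.3% (exact permutation test, p = 0.1). The share of Fgfr2 was higher with miR-497, at 19.0% ± 1.78 against 15.6% ± 0.538, and so was that of Fgfrl1, at 12.4% ± 0.402 against 7.58% ± 0.917 (SD, n = 3; exact permutation test, p = 0.1 for each). These are shares of a sum that itself was smaller with miR-497, so a higher share is no rise in level. Without Fgfrl1 in the sum, the Fgfr1 share differed by -4.38 percentage points in place of -7.77, and with the length of the longest transcript it differed by -6.96. The log2 ratio of Fgfr1 to Fgfr2 CPM was 2.22 ± 0.0707 with NC and 1.79 ± 0.179 with miR-497 (SD, n = 3; exact permutation test, p = 0.1).

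**Figure D3:**
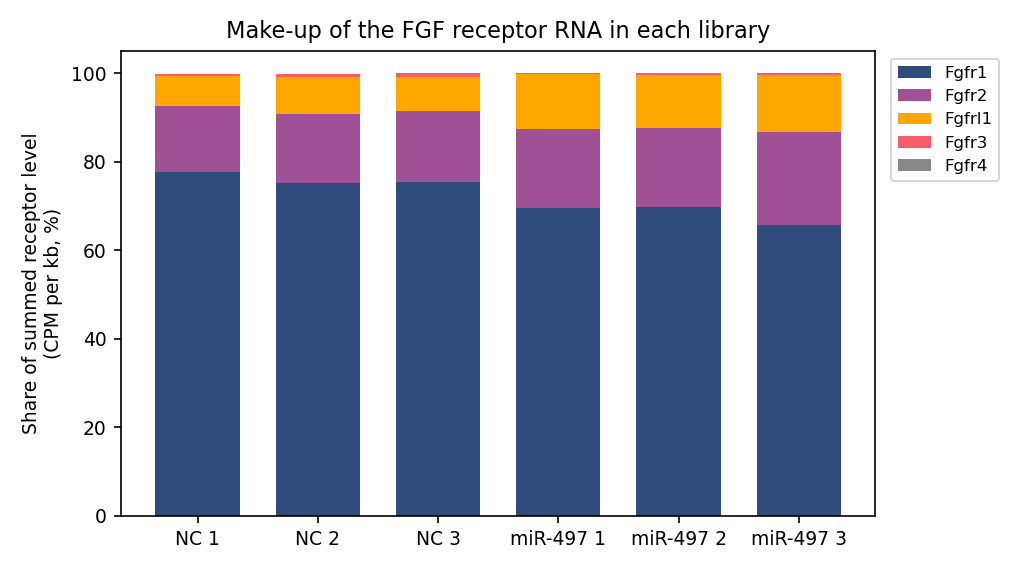
Share of each receptor (%) in the summed level per kilobase of Fgfr1, Fgfr2, Fgfrl1, Fgfr3 and Fgfr4, with 1 bar per library. The Fgfr1 part is 75.2% to 77.6% in NC libraries and 65.7% to 69.7% in miR-497 libraries.

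The ligands of this set were hardly expressed in either group, so the name "expressed ligands" under which they were listed was not borne out. Fgf1, a ligand of all 4 receptor kinases, and Fgf7, which signals from mesenchyme to epithelium through an Fgfr2 splice form, had 0 counts in all 6 libraries. Taking 3 counts as the limit that a count of 0 allows, up to 0.0830 to 0.116 CPM would have gone unseen, depending on the library. Fgf21, an endocrine factor that needs the coreceptor Klb, had 1, 2 and 2 counts with NC and 1, 2 and 0 with miR-497. Together the 5 ligands had 11 to 47 counts per library. Such limits cover counting error only.

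Fgf2 (ENSMUSG00000037225, chr3:37348346-37410108), which lacks a classical secretion signal, had 26, 8 and 6 counts with NC and 4, 12 and 6 with miR-497. A single NC library carried most of the NC counts, the groups overlapped, and the gene did not pass the filter on low counts. Without that filter its log2 fold change was -0.71 (standard error 0.708, edgeR adjusted p = 0.50), so at this depth no difference was detectable. Opposite-strand exons of Nudt6 cover 9.44% of the exon bases of Fgf2.

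Fgf18 (ENSMUSG00000057967, chr11:33117430-33147400), a ligand with a role in cartilage and bone, had 20, 16 and 16 counts with NC and 6, 6 and 10 with miR-497. The groups did not overlap, as for 29.6% of tested genes in this direction and 27.8% in the other. The gene passed the filter only through its NC libraries, and its log2 fold change of -1.07 (standard error 0.516, edgeR adjusted p = 0.095) missed the threshold. Alternatives gave adjusted p-values from 0.095 to 0.26.

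Since the listed ligands were so low, the other 17 FGF genes were counted too; those singled out here were chosen after their values were seen. Of all 22 FGF genes that are not receptors, 6 had 0 counts in all libraries, 10 had 1 to 50 counts in all libraries together, and 6 had more. Fgf10, a mesenchymal ligand that signals mainly through an Fgfr2 splice form, had 358, 408 and 291 counts with NC and 407, 425 and 299 with miR-497. It held 72.4% to 73.6% of the counts of these 22 genes in NC libraries and 83.1% to 91.7% in miR-497 libraries. Over the 18 whose products do not stay inside the cell, its share was 80.4% to 85.7% and 89.9% to 96%. At 10.8 ± 0.420 CPM with NC and 13.1 ± 3.2 CPM with miR-497 (SD, n = 3), its groups overlapped and its log2 fold change was 0.28 (standard error 0.147, edgeR adjusted p = 0.13). Without miR-497 replicate 3 it was called higher, at 0.45 (edgeR adjusted p = 0.0059).

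Of the 17 other FGF genes only 4 were tested, and none was called (edgeR adjusted p under 0.05 for 0 genes, unadjusted p under 0.05 for 0, and 0 by DESeq2 and limma voom). Besides Fgf10 these were Fgf11 and Fgf12, whose products stay inside the cell, and Fgf17. Their log2 fold changes were -0.78 (standard error 0.419), -1.10 (standard error 0.566) and -1.10 (standard error 0.545), from at most 56 counts per library. Fgf17 was called lower without miR-497 replicate 2, at -1.70 (edgeR adjusted p = 0.047). That library had 17 Fgf17 counts, the others with miR-497 had 2 and 10. Fgf12 and Fgf17 passed the filter on low counts only through their NC libraries, where they were higher. Fgf23, a phosphate-regulating hormone, had 1, 15 and 22 counts with NC and 1, 2 and 4 with miR-497. It did not pass the filter on low counts in the main fit. It was called lower only without NC replicate 1, at -2.83 (edgeR adjusted p = 0.0052), or without the filter, at -2.30 (edgeR adjusted p = 0.04). NC replicate 1 was the NC library with 1 count, so leaving it out removed the overlap of the groups. Fgf23 then passed the filter only through its NC libraries.

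Among the partners that carry FGFs on the cell surface, genes were called in both directions at shares near those of all genes. Of 32 listed coreceptors, proteoglycans and heparan sulfate enzymes, 26 were tested, 9 were lower and 6 higher, where 26.0% and 23.8% of all genes were. The median log2 fold change was -0.11 against -0.02 for all genes. Among genes with a mean log2 CPM of at least 1 the 3 largest falls were in Agrn, a heparan sulfate proteoglycan of basement membranes (240 ± 7.32 to 91.3 ± 6.39 CPM, SD, n = 3; -1.40, standard error 0.0586, edgeR adjusted p = 1.2e-11), Extl3, an enzyme that starts heparan sulfate chains (-0.98, standard error 0.0850, edgeR adjusted p = 6.8e-08), and Glce, the epimerase that modifies their sugars (-0.95, standard error 0.117, edgeR adjusted p = 3.6e-06). The 3' UTR of Extl3 held 4 sites and that of Glce 2, while Agrn had none. In the whole list 8 tested genes held a site and 5 of these were lower, where 40.9% of all genes with a match were. Among genes named in the next paragraph, Gpc6 and Hs2st1, which rose, held 1 site each, and Hs6st1, which fell, held 3. Sulf1, a sulfatase that removes sulfate groups from the chains, rose by 0.86 (standard error 0.180, edgeR adjusted p = 0.00071), with 3.46 ± 0.423 and 6.30 ± 0.455 CPM.

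Fgfbp3 and Gpc6 rose too. Fgfbp3, which binds FGFs outside the cell, went from 4.62 ± 0.156 to 8.32 ± 1.48 CPM (SD, n = 3; a change of 0.85, standard error 0.164, edgeR adjusted p = 0.00034), and Gpc6, a glypican, rose by 0.78 (standard error 0.129, edgeR adjusted p = 7.9e-05). Among genes named after their values were seen, the related carrier Fgfbp1 fell from counts of 65, 55 and 42 to 8, 13 and 7 (-2.36, standard error 0.414, edgeR adjusted p = 0.00015). Fgfbp1 passed the filter on low counts only through its NC libraries, and it was removed when a mean of 50 counts was required. Hs6st1, which adds the 6-O-sulfate that Sulf enzymes remove, fell by 0.74 on the log2 scale (standard error 0.0938, edgeR adjusted p = 5.2e-06), and Sulf2 rose by 0.49 (standard error 0.0503, edgeR adjusted p = 4.4e-07). The related Hs6st2 was not called, at 0.10 (standard error 0.155, edgeR adjusted p = 0.62). Hs2st1, another enzyme of the list, rose by 0.30 (standard error 0.0605, edgeR adjusted p = 0.00051). The endocrine coreceptors were scarce: Kl had 3 to 8 counts per library and Klb 0 to 12.

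Inside the cell, more transducers of receptor signals fell than rose. Of the 25 listed adaptors and kinases, all were tested, 12 were lower and 4 higher, against 26.0% lower and 23.8% higher among all genes, and the median log2 fold change was -0.14. A 3' UTR site was carried by 18 of the 25 genes, against 28.1% of all tested genes with a 3' UTR. Of these 18 genes 11 were lower, where 40.9% of all genes with a match were. Thus 11 of the 12 that fell had a site. Mapk3, which encodes the kinase Erk1, stood at 133, 133 and 137 CPM in the NC libraries and at 51.9, 54.1 and 46.2 CPM in the miR-497 libraries (log2 fold change -1.40, standard error 0.0636, edgeR adjusted p = 3e-11). Map2k1, the kinase that activates it, fell from 163 ± 0.959 to 112 ± 1.76 CPM (SD, n = 3; -0.54, standard error 0.0489, edgeR adjusted p = 1e-07).

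The docking proteins nearest to the receptors differed from one another. Frs2, the main docking protein of FGF receptors, had 51.5 ± 3.48 CPM with NC and 46.7 ± 2.40 CPM with miR-497 (SD, n = 3), and its log2 fold change of -0.14 (standard error 0.0721, edgeR adjusted p = 0.11) did not pass. Its relative Frs3 fell from 4.03 ± 0.230 to 1.67 ± 0.680 CPM (-1.28, standard error 0.288, edgeR adjusted p = 0.0013), with 16.3% of its exon bases under opposite-strand exons. Gab1, an adaptor that recruits PI3 kinase and a phosphatase, rose from 29.6, 28.9 and 33.8 CPM to 66.1, 65.9 and 71.6 CPM (1.14, standard error 0.0755, edgeR adjusted p = 2.5e-09). Cbl, a ubiquitin ligase that takes receptors out of action, rose by 0.64 (standard error 0.0563, edgeR adjusted p = 7.8e-08). Gab1 and Cbl each held a 3' UTR site, and the part of sites in these changes was not tested. For Rps6ka1, a kinase activated by Erk, the rise of 0.23 (standard error 0.0825, edgeR adjusted p = 0.032) was lost without NC replicate 1 (edgeR adjusted p = 0.18), NC replicate 2 (0.05), miR-497 replicate 1 (0.082) or miR-497 replicate 3 (0.096). Without either NC replicate 1 or NC replicate 2 the number of higher genes in this list was 2.

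Sites were held by transducers that fell and by some that rose, such as Gab1 and Cbl. The kinds of match were shared: TGCTGCT in Gab1 as in Mapk3, and the longer TGCTGCTA in Cbl as in Map2k1. For comparison with Fgfr1 itself, sites of 2 transducers that fell are shown with the match in capitals, each from the longest annotated 3' UTR. A second TGCTGCT of Mapk3, at bases 494 to 500 of its 3' UTR, is not shown.
Mapk3, chr7:126765441-126765467, plus strand: agctgatctcTGCTGCTgtgtctttat
Map2k1, chr9:64186221-64186248, minus strand: aagcatgcttTGCTGCTActgaaatgag

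Genes that FGF receptors and the MAP kinase cascade are known to induce were mostly lower with miR-497. Of 20 tested genes, 14 were lower and 3 higher, against 26.0% and 23.8% of all genes, with a median log2 fold change of -0.40 against -0.02; Spry3 was also listed and not analysed here. All 6 genes grouped as immediate-early were lower, and 5 of the 6 Sprouty and Spred genes. Phlda1, placed in neither group, was not called, at 0.0095 (edgeR adjusted p = 0.94). Opposite-strand exons cover 57.2% of the exon bases of Fosl1, which was grouped as immediate-early. Of the immediate-early genes Myc lost its call without NC replicate 2 (edgeR adjusted p = 0.089) or miR-497 replicate 3 (0.087). These genes answer to many receptors, so the list does not single out FGF signalling. A 3' UTR site for miR-497-5p was held by 5 of the 20 genes, against 28.1% of all tested genes with a 3' UTR. Of these 5 genes 4 were lower, where 40.9% of all genes with a match were. Thus 4 of the 14 lower genes had a site.

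Spry2, an inhibitor of receptor tyrosine kinase signalling, went from 39.8, 46.0 and 45.4 CPM to 19.7, 18.9 and 21.5 CPM (log2 fold change -1.13, standard error 0.0811, edgeR adjusted p = 7.4e-09). Spry4 went from 104 ± 2.07 to 55.7 ± 3.57 CPM (SD, n = 3; -0.91, standard error 0.0619, edgeR adjusted p = 3.7e-09), and Spry1 fell by 0.87 (standard error 0.0875, edgeR adjusted p = 3.7e-07), with 24.4% of its exon bases under opposite-strand exons. In each of these 3 genes every miR-497 library lay under every NC library, as in 29.6% of all tested genes. Egr1, an early transcription factor, showed the largest fall of the list, from 55.2, 56.6 and 52.9 CPM to 15.9, 18.0 and 16.9 CPM (-1.69, standard error 0.0746, edgeR adjusted p = 2.1e-11). Fos fell by 1.51 on the log2 scale (standard error 0.252, edgeR adjusted p = 8.8e-05), from NC libraries that ranged from 3.89 to 7.74 CPM.

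The Ets factors and phosphatases did not move as one. Etv4 fell from 145 ± 6.89 to 103 ± 3.74 CPM (SD, n = 3; -0.50, standard error 0.0547, edgeR adjusted p = 1e-06), while its relative Etv5 had 36.6 ± 1.67 and 41.8 ± 1.33 CPM and was called higher by only 0.19 (standard error 0.0695, edgeR adjusted p = 0.03). The Etv5 call was lost without NC replicate 1 (edgeR adjusted p = 0.065), NC replicate 2 (0.12), miR-497 replicate 1 (0.073) or miR-497 replicate 2 (0.076), and without the filter (0.064). Dusp6, a phosphatase of Erk and a common readout of FGF signalling, stood at 249, 254 and 258 CPM with NC and 236, 237 and 232 CPM with miR-497. The groups did not overlap, as for 29.6% of tested genes in this direction. The log2 fold change of Dusp6, -0.11 (standard error 0.0489, edgeR adjusted p = 0.068), missed the threshold. Dusp4, a nuclear phosphatase of MAP kinases, rose from 249 ± 9.45 to 395 ± 14.9 CPM (SD, n = 3; 0.67, standard error 0.0536, edgeR adjusted p = 2.7e-08).

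Il17rd, also called Sef, an inhibitor that acts on FGF receptors, rose the most of the list. Its counts were 66, 62 and 56 with NC and 114, 146 and 180 with miR-497. The log2 fold change was 1.41 (standard error 0.222, edgeR adjusted p = 5.1e-05), and the gene held 1 site in its 3' UTR.

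**Figure D4:**
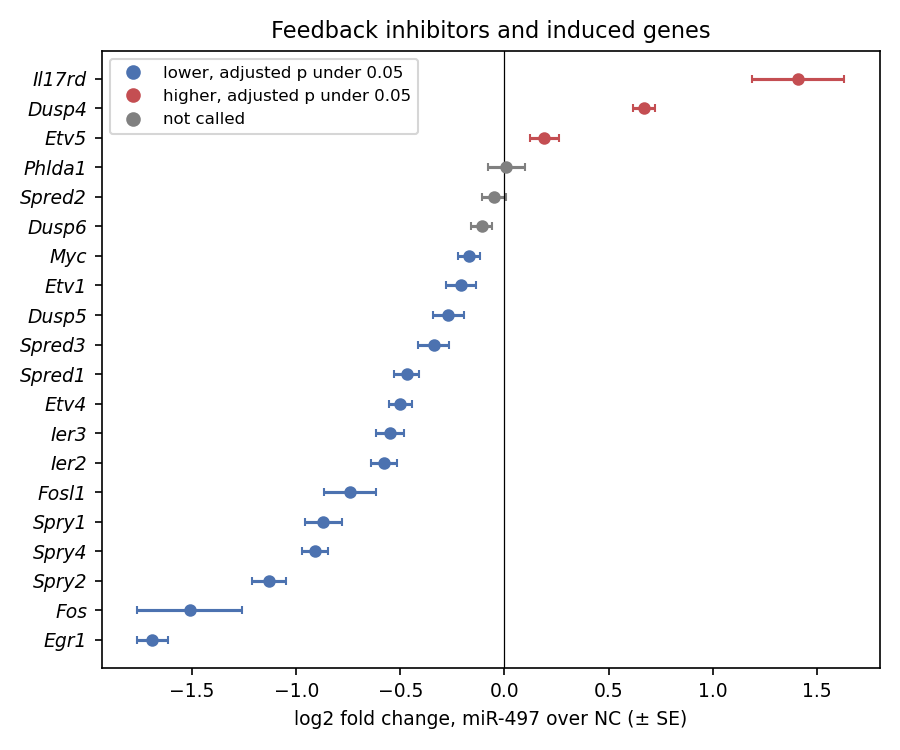
Log2 fold change, miR-497 over NC, with its SE, for the 20 tested feedback inhibitors and induced genes, coloured by the edgeR call at an adjusted p under 0.05. Egr1 at -1.69 and Il17rd at 1.41 mark the ends, and 14 genes are called lower and 3 higher.

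Other receptor tyrosine kinases give a comparison for Fgfr1. Of 25 tested, 9 were lower and 3 higher, against 26.0% and 23.8% of all genes, and the median log2 fold change was -0.16. The share of lower genes was not far from that of all genes. The 3 largest falls among those called were in Tyro3 (-1.43, standard error 0.117, edgeR adjusted p = 3.5e-08), Egfr (-1.29, standard error 0.202, edgeR adjusted p = 4.8e-05) and Insr (-0.89, standard error 0.0744, edgeR adjusted p = 4.5e-08), the receptors for Gas6, epidermal growth factor and insulin. Tek, the endothelial angiopoietin receptor, was the most raised, by 0.33 (standard error 0.0548, edgeR adjusted p = 7.8e-05), ahead of Ephb4 at 0.17 (standard error 0.0509, edgeR adjusted p = 0.011) and Tie1 at 0.15 (standard error 0.0523, edgeR adjusted p = 0.027). Without NC replicate 1 only 1 receptor of this list was called higher, since Ephb4 (edgeR adjusted p = 0.054) and Tie1 (0.1) were lost. Without NC replicate 2 they were lost too (edgeR adjusted p = 0.083 and 0.15), and Tie1 also without miR-497 replicate 2 (0.075) or 3 (0.063). Calls were gained as well. Ddr2, at 0.22 in the main fit (edgeR adjusted p = 0.057), was called higher in several alternatives, among them DESeq2 (0.23, DESeq2 adjusted p = 0.031). With single libraries left out, 9 to 11 receptors of this list were lower, the added ones being Axl and Ryk.

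**Figure D5:**
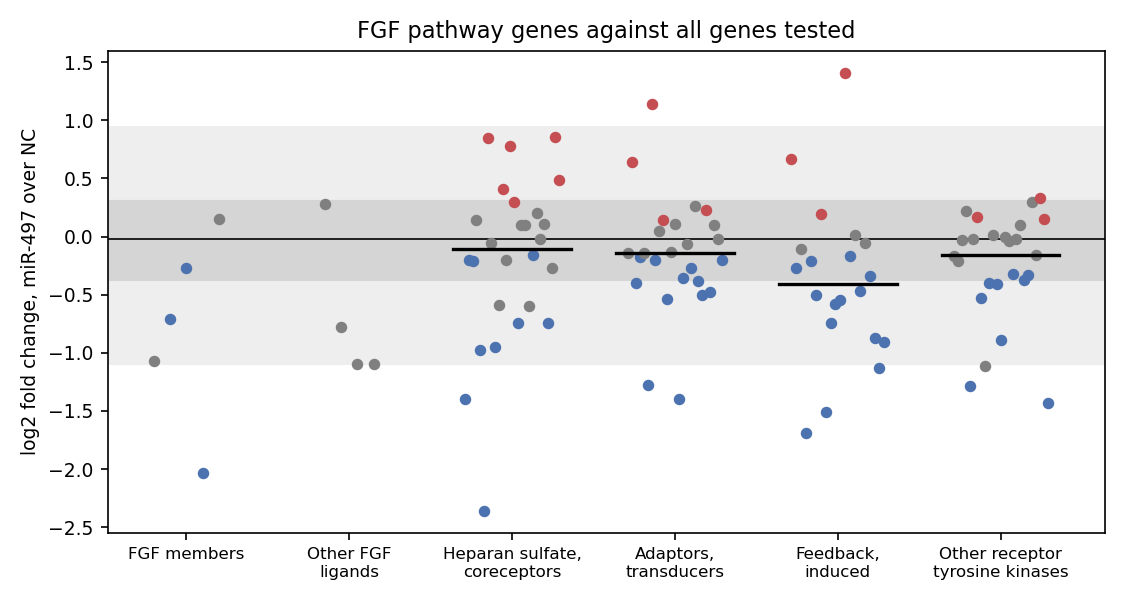
Log2 fold change, miR-497 over NC, of every tested gene in the FGF set and in 5 related lists, blue where called lower, red where called higher and grey where not called; short black lines are list medians, drawn for the 4 larger lists. The thin line is the median of all 14661 tested genes at -0.02, and the grey bands span their 25th to 75th percentile (-0.37 to 0.31) and 5th to 95th percentile (-1.10 to 0.94).

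Among the 5 tested genes whose centred log2 CPM over the 6 libraries lay closest to that of Fgfr1 were Gatm, an enzyme of creatine synthesis (Euclidean distance 0.0549), Cd47 (0.0650), Isy1 (0.0730) and Sema3a (0.0758). The log2 fold changes of these 4 genes ran from -0.72 to -0.68, close to that of Fgfr1 because the choice by distance required it.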

How the data were processed

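The deposited values were raw read counts per mouse Ensembl gene, made by the authors and not normalized; per the submitters' processing notes, GRCm38, STAR 2.5.4b, featureCounts, Subread 1.6.1 and edgeR 3.32.1 were used. The annotation release, the strand setting and the handling of multiply aligned reads are not given in the sources used here. Symbols came from GENCODE M21 (GRCm38), which matched 55141 of 55401 identifiers. Groups and replicate numbers came from the titles.

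All genes were fitted with edgeR 4.0.16 in R 4.3.3: filterByExpr (minimum count 10, minimum total 15), TMM scaling, and a 2-sided quasi-likelihood F-test with group as the only term, adjusted by Benjamini-Hochberg, threshold 0.05. The standard error is the log2 fold change over the root of F. The CPM used TMM-scaled totals, and kilobases count the union of exons in M21. The fit was tested on simulated data. Alternatives used DESeq2 1.42.0, limma 3.58.1 voom, 2 scalings, 2 filters, the replicate block and each library left out.

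The members and lists were chosen with earlier results of these data known. Named genes were all 10 members, up to 3 called genes per direction and list with a mean log2 CPM of at least 1 (prior count 2), Frs2, Spry1, Spry2, Spry4, Dusp6, Etv4 and Etv5, and the 5 genes nearest to Fgfr1. Some results are not reported here because they concern items withheld for evaluation.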

Additional observations from a re-analysis of the deposited data

How the results depend on the processing

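For 34 genes, the tested members and the genes named by rule from the lists, 440 pairs of a gene and an alternative were compared. Of these pairs 421 kept direction and side of the threshold, 19 lost the call and 0 reversed. Other genes named in the text were left out of this comparison. Among those, Fgf10, Fgf17 and Fgf23 gained a call and Myc lost its call under some alternatives, as given above. The call of Fgfr1 held under all of its alternatives, from -0.72 to -0.66. The number of lower FGF genes was 3 or, without NC replicate 3 or with a mean count of at least 50, which removes Fgfr3, it was 2. Leaving out single libraries gave 0 to 1 lower and 0 to 1 higher among the other FGF ligands, 2 to 4 higher transducers and 1 to 3 higher receptor tyrosine kinases. Without a filter 1 other ligand was lower. Without Fgfrl1 the Fgfr1 share differed by -4.38 points, and with the shortest 3' UTR 1 FGF gene held a site.

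Same-numbered libraries did not deviate together (correlations -0.119, -0.0351 and -0.133), so the numbers were not taken as pairs. The fit with the replicate block called 3 FGF genes lower, and among named genes it lost Etv5 (edgeR adjusted p = 0.062), Ephb4 (0.053) and Tie1 (0.098). Depth limits the 5 listed ligands, which together had 11 to 47 counts per library.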
